A study of Mus musculus with 2 samples.

Results

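The genes described here are 42 genes of the cell division cycle, chosen by symbol from the 32285 genes of each count table. They comprise 16 genes of DNA synthesis, 23 genes of mitosis, and Stmn1, Pclaf and Birc5, which were kept apart from the other 39 so that they could be read in cells sorted by those 39. All 42 were found in both libraries. The cells were mouse Treg (regulatory T) cells, which hold other immune cells in check, stained with MitoTracker, a dye that mitochondria take up. Flow cytometry divided them into a dye-high (Mito-high) and a dye-low (Mito-low) population. Each gave 1 library made with the 10x Genomics 5′ kit version 2, which counts transcripts of single cells by unique molecular identifiers (UMIs). Tissue, strain, sex, age, treatment, the number of mice and the gates for Treg cells and dye were not given in the labels or other sources used here. No group carries a named genotype or agent, and the series title names copper and suppressive capacity as the subject.

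A cell that divides first copies its DNA and then separates the copies. In the synthesis phase the minichromosome maintenance (Mcm) helicase, loaded by Cdc6 and activated with Cdc45 and the GINS complex, opens the double strand, while enzymes such as ribonucleotide reductase (Rrm1, Rrm2) and thymidylate synthase (Tyms) supply nucleotides. In mitosis Cdk1 with cyclins A and B, the Aurora and Plk1 kinases, the kinetochore and the spindle motors part the chromosomes, and Ube2c helps the anaphase-promoting complex to end the phase. Resting T cells transcribe most of these genes at a low level, and Treg cells are known to divide in the living animal more often than most other CD4 T cells. The E2F factors and the DREAM and MuvB complexes, which act at promoters, are the known regulators of this programme.

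Sequences upstream of the genes are shown for the members whose values the results turn on: Pclaf and Birc5, a helicase gene (Mcm5) and 2 mitosis genes (Cdk1, Ube2c) far apart between the libraries, and 2 members at nearly equal levels in the libraries (Mcm6, Cenpa). They were chosen after the values were seen. RefSeq, build GRCm38.p6, gave a promoter window for 35 of the 42 members, from 250 bases before to 50 after the start of the gene. Capitals mark, on either strand, the word CCAAT of the CCAAT box, 4 words of E2F type and 2 words of the cell cycle genes homology region (CHR), and overlapping matches run together. The first E2F-type word is TTCCCGC, the next is TTCGCGC, then come TTGCCGC as well as TTGGCGC. The CHR words searched were TTTGAA as well as TTTAAA. The windows read 5′ to 3′ on the strand of the gene.
Pclaf, chr9:65890073-65890372, plus strand: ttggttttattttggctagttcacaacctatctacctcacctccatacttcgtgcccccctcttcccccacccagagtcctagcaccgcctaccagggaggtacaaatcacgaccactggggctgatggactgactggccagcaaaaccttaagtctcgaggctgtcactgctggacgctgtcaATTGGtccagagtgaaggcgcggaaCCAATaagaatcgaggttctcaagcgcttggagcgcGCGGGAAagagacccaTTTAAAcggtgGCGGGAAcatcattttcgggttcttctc
Birc5, chr11:117848987-117849286, plus strand: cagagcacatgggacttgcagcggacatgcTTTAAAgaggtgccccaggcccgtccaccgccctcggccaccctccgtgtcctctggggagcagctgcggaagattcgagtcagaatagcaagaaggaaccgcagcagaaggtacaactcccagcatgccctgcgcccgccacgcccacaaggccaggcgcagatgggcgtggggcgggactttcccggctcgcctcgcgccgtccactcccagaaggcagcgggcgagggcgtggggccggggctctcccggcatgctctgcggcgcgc
Mcm5, chr8:75109259-75109558, plus strand: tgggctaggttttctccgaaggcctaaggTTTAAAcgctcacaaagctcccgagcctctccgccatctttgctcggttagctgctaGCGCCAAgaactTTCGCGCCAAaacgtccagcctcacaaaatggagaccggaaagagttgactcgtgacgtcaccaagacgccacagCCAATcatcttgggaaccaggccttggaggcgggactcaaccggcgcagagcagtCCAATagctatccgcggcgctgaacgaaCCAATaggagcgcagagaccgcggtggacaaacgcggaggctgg
Mcm6, chr1:128359656-128359955, minus strand: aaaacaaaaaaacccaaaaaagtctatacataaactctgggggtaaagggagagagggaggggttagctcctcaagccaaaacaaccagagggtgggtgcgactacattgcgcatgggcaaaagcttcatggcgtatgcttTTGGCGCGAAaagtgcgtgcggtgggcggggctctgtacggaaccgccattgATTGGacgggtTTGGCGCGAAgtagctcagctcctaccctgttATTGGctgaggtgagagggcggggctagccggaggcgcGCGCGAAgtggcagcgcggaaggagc
Cdk1, chr10:69352863-69353162, minus strand: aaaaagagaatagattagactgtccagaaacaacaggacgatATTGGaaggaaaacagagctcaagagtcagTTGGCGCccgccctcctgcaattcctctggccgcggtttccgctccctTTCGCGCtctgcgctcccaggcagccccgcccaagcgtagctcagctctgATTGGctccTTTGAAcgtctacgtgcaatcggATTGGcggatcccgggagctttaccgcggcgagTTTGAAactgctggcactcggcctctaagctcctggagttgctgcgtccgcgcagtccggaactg
Ube2c, chr2:164769679-164769978, plus strand: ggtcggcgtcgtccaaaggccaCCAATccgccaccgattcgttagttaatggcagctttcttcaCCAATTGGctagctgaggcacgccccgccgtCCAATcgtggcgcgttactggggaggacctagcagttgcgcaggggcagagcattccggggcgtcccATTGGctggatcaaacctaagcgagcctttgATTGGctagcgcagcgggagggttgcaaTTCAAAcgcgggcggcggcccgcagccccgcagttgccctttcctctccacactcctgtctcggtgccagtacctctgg
Cenpa, chr5:30666636-30666935, plus strand: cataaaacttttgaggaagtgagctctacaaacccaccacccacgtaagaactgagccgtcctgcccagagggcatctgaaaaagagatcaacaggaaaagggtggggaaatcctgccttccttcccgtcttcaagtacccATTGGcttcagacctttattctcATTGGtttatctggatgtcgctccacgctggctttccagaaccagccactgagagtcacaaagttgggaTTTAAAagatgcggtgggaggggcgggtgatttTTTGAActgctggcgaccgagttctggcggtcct

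The CCAAT word lay in the windows of 29 of the 35 members, 10 of 14 synthesis and 18 of 19 mitosis genes, and in 37.9% of the 26994 genes with a window. E2F-type words were in 12 of 35, of which 8 of 14 synthesis and 3 of 19 mitosis genes, against 9.68% of all genes. CHR words were in 23 of 35, of which 5 of 14 synthesis and 16 of 19 mitosis genes, against 27.8% of all. The E2F-type words thus sat more in the synthesis genes and the CHR words more in the mitosis genes. Mcm5 held 3 CCAAT, 3 E2F-type and 1 CHR match, and Mcm6 held 2, 5 and 0. Cdk1 held 3, 2 and 2 in that order, and Cenpa 2, 0 and 2. Whether the marked words go with the differences between the libraries given below was not tested. Such a match is a run of letters, not a measured binding site.

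Cells were kept at 500 or more detected genes and at most 20% of UMIs from mitochondrially encoded genes, which left 12217 of 12352 Mito-high and 11679 of 11901 Mito-low barcodes, with 89996794 and 60688904 UMIs in the whole tables. Their median depth was 6132 and 4668 UMIs, and 264 and 21 cells exceeded 20000 UMIs. A UMI of a CD3 chain (Cd3e, Cd3d or Cd3g) was seen in 99.1% and 98.6% of kept cells and one of Foxp3, the factor that defines Treg cells, in 16% and 17.3%. At least 2 B cell markers were detected in 65 and 45 cells. The libraries shared 38 barcodes, 0.308% and 0.319% of theirs. With 1 library for each population no difference could be set against a spread between replicates, so the values below are descriptions of 2 libraries. Intervals are 95% intervals and cover counting error only. They are exact, except those of the synthesis minus mitosis difference (normal approximation) and of the difference between 2 shares (Newcombe's method on the exact intervals).

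The division genes as a whole were higher in Mito-high cells. The 42 genes made up 1475 UMIs per 1000000 (CPM) in the Mito-high library and 644 CPM in the Mito-low library, a log2 ratio of 1.20 (interval 1.18 to 1.21). All 42 reached the mean of 1 CPM over both libraries that was required of a measured gene. Of them 34 exceeded their Mito-low level by 1.5-fold or more, 0 were lower by as much, and 8 lay between. Among all 11896 measured genes 6.2% were higher by that rule and 14.9% lower. The median log2 ratio of the members was 1.99, and that of all measured genes was -0.16. Other library scalings moved every log2 ratio up by 0.13 to 0.19. The gap was widest for Stmn1, Pclaf and Birc5, chosen with earlier results of these data known, at 285 against 22.2 CPM (log2 ratio 3.68). It was smaller for the synthesis genes, at 685 against 372 CPM (0.88), and the mitosis genes, at 505 against 250 CPM (1.02). The synthesis minus mitosis difference in log2 ratio was -0.13 (-0.17 to -0.10), but -0.00038 with each cell thinned to 2000 UMIs and 0.31 within cells of 4000 to 6000 UMIs. Depth moved with these sums, and its part in them was not tested. With each cell thinned to 2000 UMIs before summing, so that all cells weighed alike, the log2 ratio of the sum was 0.60. Within cells of 4000 to 6000 UMIs, a window chosen after the data were seen, it was -0.23. Of 33 members measured in that window 5 were higher and 12 lower by 1.5-fold or more. The share over all genes was not computed there.

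**Figure D1:**
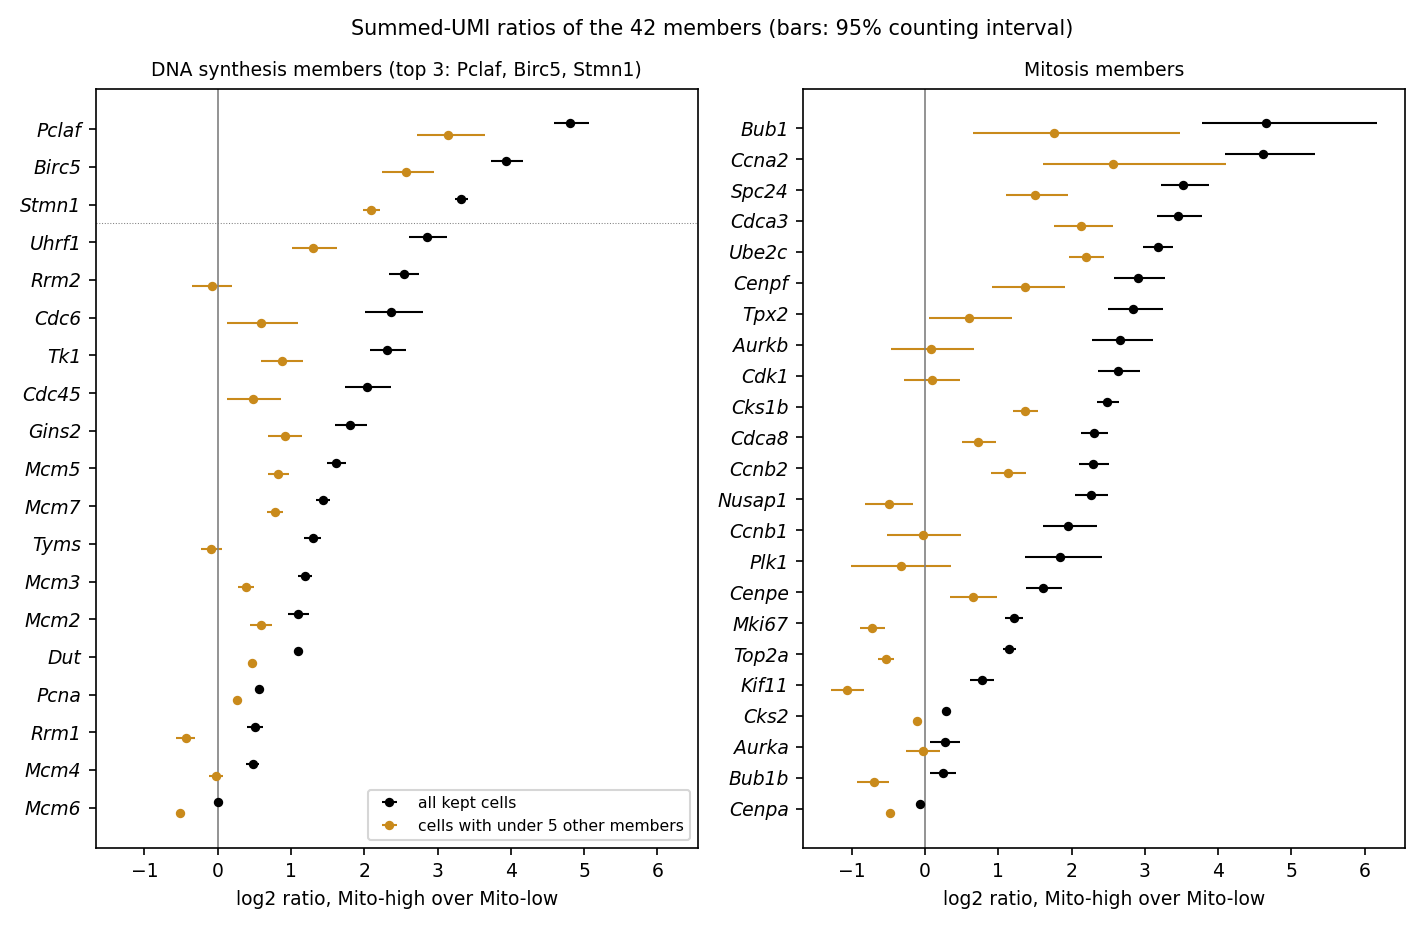
Log2 ratio between the libraries (Mito-high over Mito-low) for each of the 42 members, with exact 95% intervals for counting error. UMIs were summed over all kept cells and, as a second series, over cells with under 5 of the other synthesis and mitosis genes. Over all kept cells the members lie between -0.07 (Cenpa) and 4.81 (Pclaf), while the median of all 11896 measured genes is -0.16.

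Among the 16 synthesis genes 12 stood higher in Mito-high by 1.5-fold or more and 0 lower, with a median log2 ratio of 1.36. The ratio was largest for Uhrf1, which keeps DNA methylation through replication, at 16.2 CPM in Mito-high against 2.23 in Mito-low (log2 ratio 2.85). Rrm2, the regulated subunit of ribonucleotide reductase, followed at 20.9 against 3.59 CPM (2.54). Cdc6, the helicase loader, stood at 5.37 against 1.02 CPM (2.37). These genes are scarce in Mito-low cells, at under 4 CPM each.

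The synthesis genes with the highest levels were less far apart. Pcna, the sliding clamp of the polymerases, was at 166 CPM in Mito-high against 112 in Mito-low (log2 ratio 0.56). Dut, which removes dUTP, was at 150 against 70.0 CPM (1.10). Mcm4 was at 38.6 against 27.7 CPM (0.48). Mcm6, another of the subunits of the same ring, was at 63.7 against 63.4 CPM, a log2 ratio of 0.01. The helicase subunits therefore spanned a wide range although they work as 1 complex: Mcm5 had a log2 ratio of 1.62, Mcm7 of 1.43, Mcm3 of 1.18 and Mcm2 of 1.10. The subunits of ribonucleotide reductase differed likewise, since Rrm1 stood at 24.1 against 17.0 CPM (0.51) beside 2.54 for Rrm2. The rest of the synthesis genes ran from Tyms at 1.29 through Gins2 at 1.81 and Cdc45 at 2.04 to Tk1, thymidine kinase, at 2.31.

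Among the 23 mitosis genes 19 were higher by this rule and 0 lower, with a median log2 ratio of 2.30. Bub1, a kinase of the spindle checkpoint, was at 3.33 CPM in Mito-high against 0.116 in Mito-low (log2 ratio 4.66, from 299 and 7 UMIs). Ccna2, cyclin A2, was at 10.1 against 0.397 CPM (4.62). Spc24, part of the NDC80 complex of the kinetochore, was at 15.9 against 1.37 CPM (3.52). Next came Cdca3 at 3.45, Ube2c at 3.17, Cenpf at 2.90, Tpx2 at 2.84, Aurkb at 2.66 and Cdk1 at 2.63. Each of these was under 4 CPM in Mito-low.

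The most abundant mitosis genes covered a wide range. Cks2, a small partner of cyclin-dependent kinases, was at 101 CPM in Mito-high against 82.9 in Mito-low (log2 ratio 0.28). Cenpa, the histone H3 variant of the centromere, was at 74.4 against 77.9 CPM (-0.07, -0.12 to -0.01), the only member below 0, and it stood above 0, at 0.07 to 0.12, under the other library scalings. Top2a, which untangles DNA, was at 51.5 against 23.2 CPM (1.15), and Cks1b, the relative of Cks2, at 38.7 against 6.87 CPM (2.49). Bub1b, at 8.03 against 6.76 CPM (0.25), and Aurka, at 5.81 against 4.81 CPM (0.27), also lay near the equal line, beside 4.66 for Bub1 and 2.66 for Aurkb. Mki67, widely used to stain dividing cells, was at 27.8 against 11.9 CPM (1.21). Pairs of related genes thus took different places: Cks1b and Cks2, Bub1 and Bub1b, Aurkb and Aurka. The pairs were chosen for mention with their values known.

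The 3 genes kept apart, chosen with earlier results of these data known, had the largest summed log2 ratio of the 3 groups. Stmn1 (chr4:134468320-134473843 in mm10), which makes stathmin, a protein that takes microtubules apart, gave 15038 Mito-high and 1009 Mito-low UMIs, or 167 against 16.7 CPM (log2 ratio 3.33). Pclaf (chr9:65890237-65903266), a partner of Pcna, gave 6284 and 150 UMIs, or 69.9 against 2.48 CPM (4.81). Birc5 (chr11:117849251-117855743), which makes survivin of the chromosomal passenger complex, gave 4257 and 186 UMIs, or 47.4 against 3.07 CPM (3.94). Aurkb and Cdca8, which work in that same complex, had log2 ratios of 2.66 and 2.31. Within cells of 4000 to 6000 UMIs, where the sum of the 42 was lower in Mito-high, Stmn1 still had a log2 ratio of 1.35, Pclaf of 2.12 and Birc5 of 2.20.

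The genes were also counted cell by cell. Cells of at least 2000 UMIs, 12078 Mito-high and 11188 Mito-low ones, were thinned at random to 2000 UMIs, and the synthesis and mitosis genes with a UMI, 39 in all, were counted in each; 139 and 491 shallower cells were left out. The mean was 1.35 of 39 genes in Mito-high against 1.08 in Mito-low, and 35.5% and 32.7% of cells showed 0. At least 5 were seen in 568 Mito-high cells, 4.70% (4.33 to 5.10), and in 61 Mito-low cells, 0.545% (0.417 to 0.700). At least 8 were seen in 314 Mito-high cells, 2.60%, and in 5 Mito-low cells, 0.0447%. The most seen in a cell was 22 for Mito-high and 19 for Mito-low. Cells with 5 or more are called member-rich below. The limit lies within a falling slope, with 248 and 162 cells at 4 genes and 113 and 41 at 5. In Mito-low 56 of the 61 member-rich cells had 5 to 7 genes and so adjoined the bulk, whereas Mito-high had a long tail. A class drawn from counts of these genes is a range and not a cell type, and it bounds the values of the 39 genes within it and outside it.

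**Figure D2:**
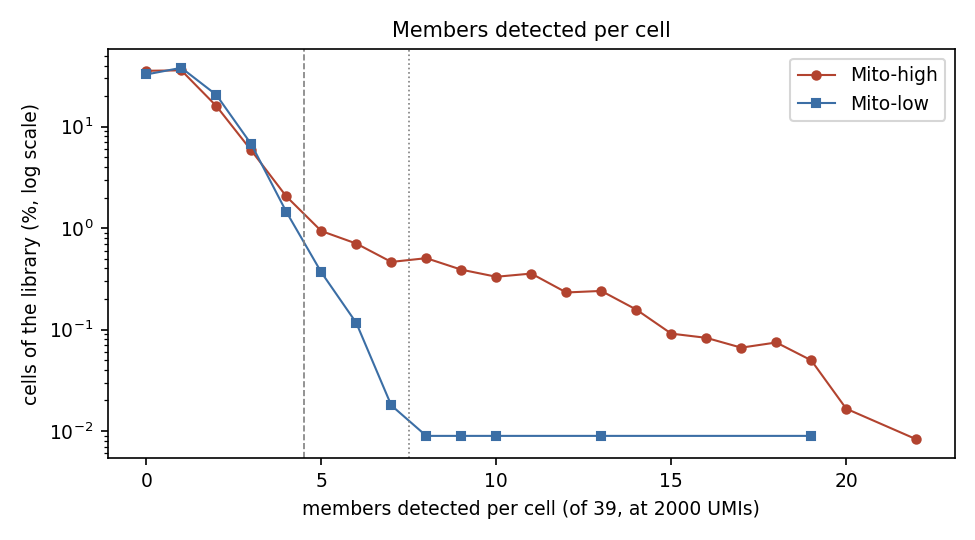
Percentage of cells, on a log axis, by the number of the 39 synthesis and mitosis genes detected at 2000 thinned UMIs, for 12078 Mito-high and 11188 Mito-low cells. Dashed lines mark 5 and 8 genes; 4.70% of the former and 0.545% of the latter lie at 5 or more.

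Member-rich cells were deep. In Mito-high their median was 15860 UMIs, against 6025 for the other cells, and in Mito-low 7630 against 4770. Of the 568 member-rich Mito-high cells 151 (26.6%) exceeded 20000 UMIs, and 16 carried 2 or more B cell markers. No doublet caller was used and no cell was removed as a doublet. Without cells above 20000 UMIs the Mito-high share was 3.53% and the log2 ratio of the summed members 0.87. Within cells of 4000 to 6000 UMIs the share was 0.377% for Mito-high against 0.304% for Mito-low. The part of depth and doublets in the shares was not tested. The mt share of UMIs was 3.24% in member-rich and 3.32% in other Mito-high cells.

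The sums of 7 T cell markers and of 10 Treg markers were lower in member-rich than in other Mito-high cells by a like proportion, at 2954 against 3560 CPM and 3533 against 4192 CPM. Among them, Cd3e was at 366 CPM in them and 435 in the other cells, and Ikzf2, which makes the Treg factor Helios, at 1347 against 1321 CPM. Foxp3 was at 15.7 against 27.0 CPM, and after thinning 4.05% and 5.46% of cells held a Foxp3 UMI. Il2ra, the interleukin 2 receptor chain CD25, was at 126 against 219 CPM and the checkpoint receptor Ctla4 at 825 against 1069. The resting gene Ccr7 was at 287 against 469 CPM and Igfbp4 at 36.6 against 85.1. Il10 and Klrg1, genes of effector Treg cells, were at 25.6 against 14.8 and 25.1 against 14.2 CPM, but Ccl5, another gene of that list, was at 12.1 against 24.7. Rag1, which marks T cell precursors of the thymus, was at 0 in both, and Cd8a at 0.42 against 0.21 CPM. Cells with 2 or more B cell markers had a summed member level of 4524 CPM in Mito-high, against 1475 over all kept cells, and of 662 against 644 CPM in Mito-low, and 16 of 64 and 0 of 45 were member-rich. Their part in the result was not tested, and without them the log2 ratio of the summed members was 1.17.

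Member-rich cells were found in each cell state of the Mito-high library, at the highest share among effector cells. Resting cells were those with an Igfbp4 UMI, and effector cells those with at least 2 of Ccl5, Il10 and Klrg1. In Mito-high, 96 of 2754 resting cells, 3.49% (2.83 to 4.24), 24 of 165 effector cells, 14.5% (9.55 to 20.9), and 446 of 9153 other cells, 4.87%, were member-rich. In Mito-low these were 0 of 180 resting cells, for which 3 counts would be a share of 1.67% and the exact interval reaches 2.03%, 7 of 1507 effector cells, 0.464%, and 54 of 9498 other cells, 0.569%. At 8 or more genes the Mito-high shares were 1.89%, 8.48% and 2.70%. The Mito-high effector share exceeded the resting share by 11.1 percentage points (6.0 to 17.4), and by 6.60 points at 8 or more genes and 6.86 with cells thinned to 1000 UMIs. The effector cells were also the deepest, with a median of 8736 UMIs, against 6414 in resting and 6052 in other Mito-high cells, and more UMIs make it easier to meet the state rule. With states taken from 2000 thinned UMIs the resting share was 1.83% (1.20 to 2.67) and the effector share 11.9% (3.98 to 25.6). The difference between these shares was then 10.1 points, with a wide interval (2.1 to 23.8). Of the cells that met both rules, member-rich ones were 2 of 6 (Mito-high) and 0 of 3 (Mito-low).

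**Figure D3:**
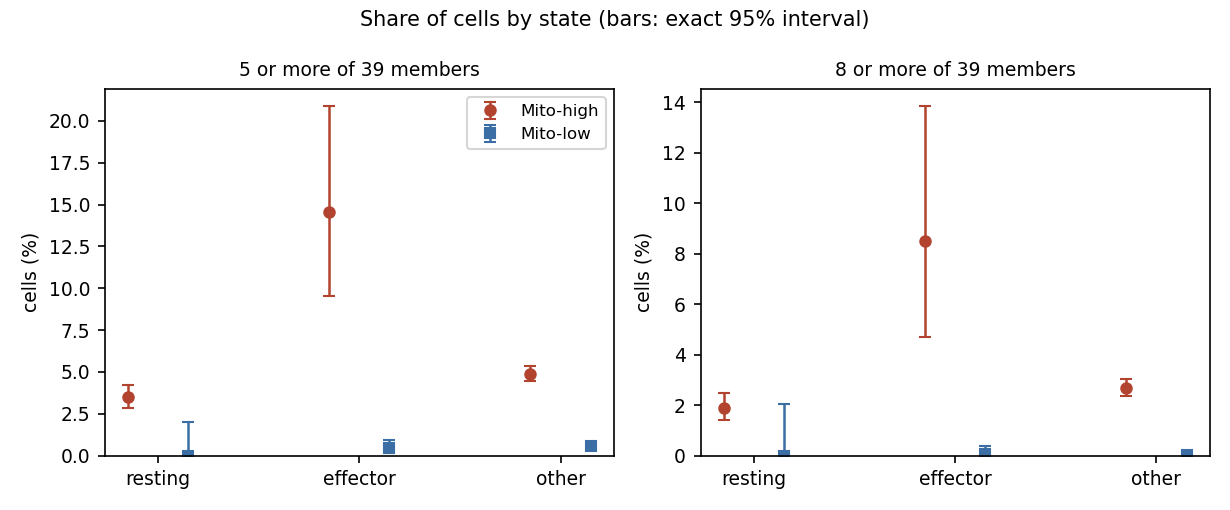
Percentage of member-rich cells (5 or more of the 39 genes at 2000 thinned UMIs) in resting, effector and other cells of each library, with exact 95% binomial intervals. The Mito-high effector cells stand highest, at 14.5% of 165 cells, and the Mito-low states lie at or under 0.569%.

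The higher levels in Mito-high were seen within each state. In resting cells the 42 genes had a summed log2 ratio of 1.43, with 37 members higher by 1.5-fold or more, beside 7.73% of all genes. Plk1 was lower there, from 30 and 2 UMIs, and the interval of its log2 ratio of -0.87 ran from -2.31 to 2.78. Of the members 11 had 0 UMIs in the 185 resting Mito-low cells and 30 had under 10, so the counts in this state rest on few molecules. With members at 0 set to the floor of 3 UMIs, 35 were higher by 1.5-fold or more. In effector cells the log2 ratio was 2.07, with 41 members higher, beside 16.5% of all genes, and Mcm6, at 0.48, was the exception. In other cells it was 1.24, with 34 higher, beside 6.02%. Synthesis genes had log2 ratios of 1.12, 1.56 and 0.90 in the 3 states in that order and mitosis genes 1.29, 2.02 and 1.09. For Stmn1, Pclaf and Birc5 together they were 3.92, 4.47 and 3.79. Pclaf gave 1054 UMIs in resting Mito-high cells and 0 in resting Mito-low cells. Against a floor of 3 UMIs it was 18.6-fold higher, and the exact interval of its log2 ratio began at 3.91. Birc5, with 668 and 0 UMIs, was 11.8-fold higher against that floor, with an interval from 3.25. The libraries differ in how many cells each state holds, and with the states weighted alike the summed log2 ratio was 1.66.

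The member-rich cells were grouped by which genes they showed, with 3 or more synthesis genes, 3 or more mitosis genes, or both. Of the 568 in Mito-high, 209 (36.8%) had synthesis genes only, 242 (42.6%) both and 117 (20.6%) mitosis genes only. Of the 61 in Mito-low, 32 (52.5%) had synthesis only, 6 (9.84%) both and 23 (37.7%) mitosis only. A cell with both needs 6 or more genes, and 41 of the 61 Mito-low cells had exactly 5. At 8 or more genes, cells with both were 218 of 314 in Mito-high (69.4%) and 4 of 5 in Mito-low. By state, synthesis only, both and mitosis only were 40, 46 and 10 of the 96 resting Mito-high cells, 5, 11 and 8 of the 24 effector cells and 164, 183 and 99 of the 446 other cells.

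Stmn1, Pclaf and Birc5 had no part in these groupings and followed them in different ways. In the Mito-high cells with synthesis only, both and mitosis only, Pclaf was at 318, 914 and 317 CPM, highest in cells with both. Birc5 was at 70.3, 528 and 621 CPM, low in cells with synthesis genes only. Stmn1 was at 631, 1492 and 1135 CPM. Histone genes tied to replication, which supply chromatin for new DNA, were at 493, 2500 and 1211 CPM in sum, with the same order as Stmn1.

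**Figure D4:**
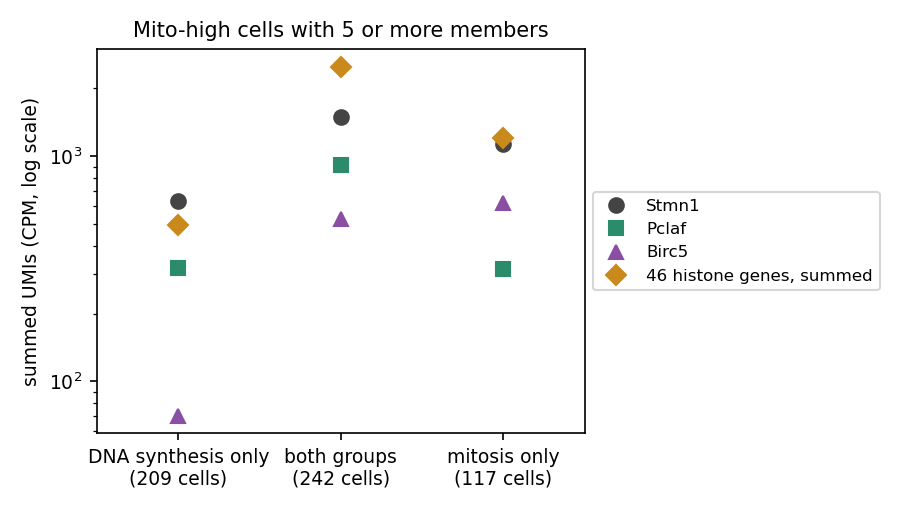
CPM, on a log axis, of Stmn1, Pclaf, Birc5 and the summed replication-dependent histone genes in member-rich Mito-high cells. The cells are grouped by the kind of genes they show (synthesis only, both, mitosis only). Birc5 is at 70.3 CPM in cells with synthesis genes only and at 621 in cells with mitosis genes only, while Pclaf peaks at 914 in cells with both.

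The 3 genes also differed between the libraries in cells that showed few or none of the 39. They had been picked, with earlier results of these data known, as genes seen outside dividing cells. Their levels in such cells are therefore a description and no independent support. In cells with 0 of 39 they summed to 30.7 CPM in Mito-high against 10.8 in Mito-low, a log2 ratio of 1.51 (1.30 to 1.74). Stmn1 was at 26.4 against 9.62 CPM there (1.45), Pclaf at 2.02 against 0.412 CPM (2.15, from 57 and 8 UMIs) and Birc5 at 2.30 against 0.720 CPM (1.60, from 65 and 14 UMIs). In cells with under 5 the 3 genes summed to 67.7 against 14.5 CPM (2.22). The synthesis genes in those cells summed to 414 against 363 CPM (0.19) and the mitosis genes to 222 against 236 CPM (-0.09), but the limit of 5 itself bounds these sums. In the cells with 0 of 39, Stmn1 was at 26.3 CPM in resting, 45.9 in effector (from 15 UMIs) and 26.1 in other Mito-high cells, and at 11.8 (from 6 UMIs), 9.84 and 9.52 CPM in the same states of Mito-low. Within cells of 4000 to 6000 UMIs the log2 ratio of the 3 genes in cells with 0 of 39 was 1.27.

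Levels of the 3 genes climbed with the count of the other genes. In Mito-high, Stmn1 was at 26.4, 34.4, 58.8, 194, 667, 1190 and 1886 CPM in cells with 0, 1, 2, 3 to 4, 5 to 7, 8 to 11 and 12 or more of the 39. Pclaf went over the same bins from 2.02 through 32.8 at 3 to 4 and 264 at 5 to 7 to 1094 CPM. Birc5 went from 2.30 through 40.7 and 172 to 764 CPM. In Mito-low Stmn1 was at 9.62, 9.81, 12.8, 34.8 and 349 CPM in the first 5 bins, below Mito-high in each. Median depth in Mito-high was 5890 UMIs at 0 genes, 18380 at 8 to 11 and 14955 at 12 or more, and Foxp3 was at 27.6, 14.4 and 16.8 CPM in these bins.

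**Figure D5:**
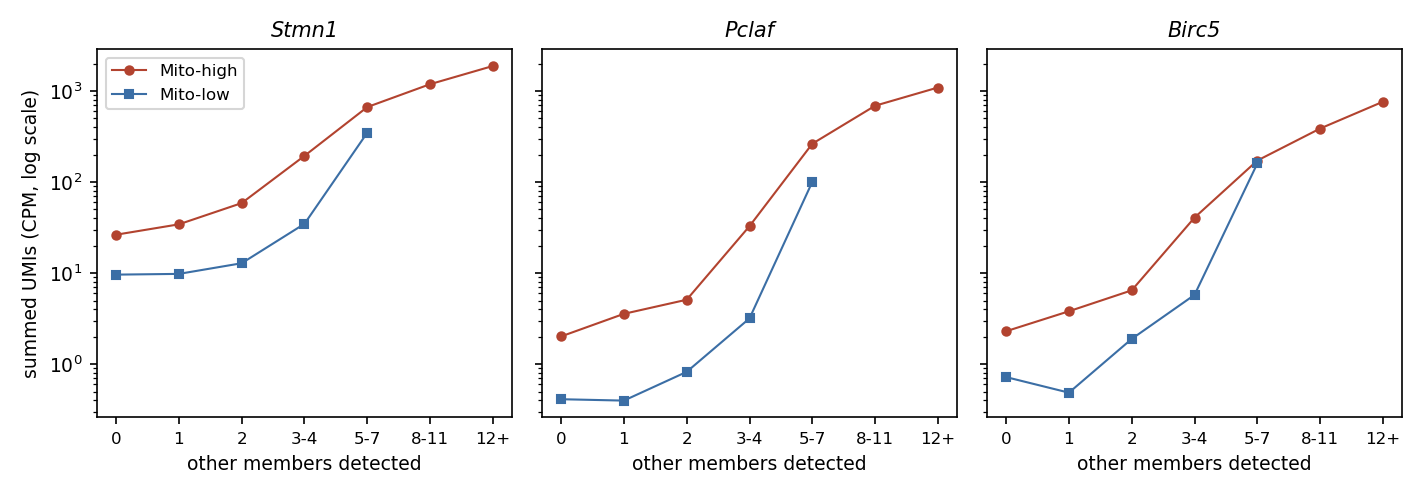
CPM, on a log axis, of Stmn1, Pclaf and Birc5 in each library. Levels are set against the number of the other 39 genes detected at 2000 thinned UMIs, in bins of 20 or more cells. Stmn1 in Mito-high lies between 26.4 and 1886 CPM, above Mito-low in each shared bin.

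In cells outside the member-rich class Stmn1 kept more of its level than Pclaf or Birc5. In Mito-high cells with 0 of the 39 the level of Stmn1 was 2.34% of that in member-rich cells, that of Birc5 0.604% and that of Pclaf 0.334%. The ratio of Stmn1 to Pclaf CPM was 1.87 in member-rich Mito-high cells, 8.2 in those with under 5 and 13.1 in those with 0, and in Mito-low it was 2.43, 17.2 and 23.4. Stmn1 over Birc5 in Mito-high moved likewise, from 2.96 to 6.84 and 11.5. The genes therefore did not keep 1 ratio across these cells. No cell type that should lack these genes was present in number, so a background from free RNA was not measured.

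The same view was taken of every member with its own UMIs left out of the count, so that a gene did not choose its own cells. In Mito-high, cells with 5 or more of the other genes gave 93.1% of the UMIs of Ccna2, 91.7% of Pclaf, 89.6% of Bub1, 88.6% of Nusap1, 88.0% of Tpx2, 87.0% of Aurkb, 86.7% of Rrm2 and 86.2% of Cdk1. They gave 85.3% for Birc5 and 71.5% for Stmn1. At the other end stood Pcna with 27.2%, Aurka with 28.6%, Cks2 with 31.8%, Cenpa with 33.1%, Mcm4 with 37.1%, Mcm2 with 37.4% and Mcm6 with 37.7%. Much of the RNA of this second group lay in cells with few other division genes. Pcna in cells with 0 of the others was at 28.6% of its member-rich level and Aurka at 32.1%, against 0.36% for Ccna2.

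Outside the member-rich cells, again with the own gene left out, 36 of the 42 members reached 1 CPM. Of these 18 were 1.5-fold or more higher in Mito-high and 3 lower, beside 4.8% and 14.8% of all 11844 genes measured there. They were 7 of 16 synthesis genes (0 lower), 8 of 17 mitosis genes (3 lower), and Stmn1, Pclaf and Birc5. Pclaf was at 6.51 against 0.726 CPM (log2 ratio 3.14), Birc5 at 7.81 against 1.30 (2.57) and Stmn1 at 53.4 against 12.5 (2.10). Ube2c followed at 2.20, Cdca3 at 2.13, Spc24 at 1.5, Cenpf and Cks1b at 1.37, Uhrf1 at 1.31 and Ccnb2 at 1.13. The 3 that were lower were Kif11, a spindle motor, at -1.06, Mki67 at -0.72 and Bub1b at -0.70. Of the 13 measured members below 0 here, 5 (Rrm2, Mcm4, Tyms, Aurka and Cks2) turned above 0 under the other scalings. In cells with 0 of the other genes Ube2c had a log2 ratio of 1.67, Cenpf of 1.53, Cdca3 of 1.49 and Cks1b of 0.75. Spc24 was at 0.31 (-0.48 to 1.21), Ccnb2 at 0.21 (-0.34 to 0.80) and Uhrf1 at -0.14 (-0.75 to 0.51) there. The rest of the 18, outside Stmn1, Pclaf and Birc5, ran in those cells from 0.35 for Mcm7 to -0.39 for Gins2.

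Further genes of the same processes, from lists of known function, were higher more often than all measured genes, but less often than the members. Over all kept cells 6.2% of the 11896 measured genes were higher and 14.9% lower. Of 57 measured genes of replication and repair 30 were higher by 1.5-fold or more over all kept cells, with a median log2 ratio of 0.66, and Orc1 was lower. Mcm10 at 3.86, Rad51ap1 at 3.18, Dscc1 at 3.15 and Clspn at 2.46 had the largest ratios. Of 57 measured further genes of mitosis and cytokinesis 44 were higher and 0 lower (median 1.24), led by the spindle and kinetochore genes Ska1 at 4.20, Kif2c at 3.86, Hmmr at 3.78 and Nuf2 at 3.51. Of 33 replication-dependent histone genes 15 were higher and Hist1h4m lower (median 0.54), with Hist1h3c at 4.29 and Hist1h2af at 4.12. These transcripts mostly lack a poly(A) tail, so poly(A) capture reads them poorly. Of 21 genes of chromatin and tubulin 5 were higher and Lmnb1 lower (median 0.34). Tuba1b was at 0.94, Ran at 0.87, Tubb5 at 0.83 and Hmgn2 at 0.72. Of 21 genes in the list of E2F and DREAM factors, which also holds Myc, 8 were higher and Rbl2 and Lin54 lower (median 0.09). E2f8 was at 3.47, E2f1 at 2.52, E2f7 at 1.56 and Mybl2 at 1.51.

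Outside the member-rich cells, where 4.8% of all measured genes were higher and 14.8% lower, 9 of 53 genes of replication and repair were higher and 2 lower. The counts were 5 higher and 7 lower of 40 genes of mitosis and cytokinesis, and 0 higher and 2 lower of 21 of chromatin and tubulin. Of 26 histone genes 1 was higher (Hist1h2bc) and 5 lower, and of 19 genes of the E2F and DREAM list 3 were higher and 2 lower. The 3 higher genes of that list were E2f1 at 1.57, E2f2 at 0.76 and Myc at 1.02. Between member-rich and other Mito-high cells, 8.6% of the 11639 measured genes outside the 42 were at least 2-fold higher in the former. By that rule 57 of 57 replication and repair genes and 58 of 60 of mitosis and cytokinesis (not Smc4 and Pttg1) were higher. So were 21 of 21 of chromatin and tubulin, 39 of 42 histones and 11 of 21 genes of the E2F and DREAM list. The gene in no list with the largest ratio was Esco2, which ties sister chromatids together during replication, at 40.6 CPM in member-rich and 0.21 in other cells, followed by Shcbp1, Depdc1a, Neil3, Mxd3, Cit, Ticrr, Kntc1, Trip13 and Tcf19.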

How the data were processed

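The authors deposited a sparse matrix of unnormalized UMI counts for each of 2 libraries, per the file headers. The submitters' processing notes name Cell Ranger 7.1.0, Seurat 4.3.0.1, R 4.3.0.1 and mm10. For annotation release, intronic reads and barcode filters, nothing was given in the sources used here. From these counts, UMIs of kept barcodes (at least 500 genes, at most 20% mt UMIs) were summed in each library and expressed per 1000000 UMIs (CPM). Log2 ratios of Mito-high over Mito-low used a pseudo-count of 1 UMI on each sum. A gene was measured at a mean of at least 1 CPM over both libraries, and 1.5-fold (2-fold between member-rich and other cells) was used to describe size. With 1 library per group there was no test. Sums have exact Poisson, ratios exact conditional-binomial and shares exact Clopper-Pearson 95% intervals, and a count of 0 is limited by 3 counts. UMIs were thinned without replacement to 2000 per cell. Doublets were not removed.

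The members and lists were chosen with earlier results of these data known. Values are given in full for Stmn1, Pclaf and Birc5, for the 4 synthesis and 4 mitosis members of highest mean CPM, for the 3 largest and 3 smallest ratios of each group, for any ratio below 0 and for up to 4 genes of each further list. The 10 genes in no list with the largest ratio between member-rich and other Mito-high cells are named from 200 UMIs up. Alternatives covered scaling (edgeR 4.0.16 TMM under R 4.3.3), filters, thinning, limits and cells taken. Calculations used Python 3.11.15, numpy 2.4.6, scipy 1.17.1 and pandas 2.3.3, and were tested on simulated data. Gene positions are those of GENCODE for mm10, and promoter windows are those of RefSeq (GRCm38.p6).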

Additional observations from a re-analysis of the deposited data

How the results depend on the processing

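No paired analysis was possible because each population gave 1 library. The log2 ratio of the summed members (1.20) was 1.38 with TMM scaling, 1.36 with the median ratio of measured genes set to 0, 1.33 without mt-, immunoglobulin, ribosomal protein and T cell receptor genes, 1.17 without cells with 2 or more B cell markers, 0.87 without cells above 20000 UMIs, 1.66 with states weighted alike and 0.60 with each cell thinned to 2000 UMIs. The number of members at least 1.5-fold higher (34) was 16 of 22 at a mean of 10 CPM, where the percentage over all genes was not computed. The member-rich share in Mito-high (4.70%) was 3.53% without cells above 20000 UMIs, 2.29% thinned to 1000 UMIs and 9.84% to 4000, 12.6% at 3 or more genes and 2.60% at 8 or more. In Mito-low (0.545%) it was 0.0689% and 4.09% at those depths and 8.70% and 0.0447% at those limits. The effector minus resting difference in Mito-high (11.1 points) was 22.0 at 3 or more genes, 6.60 at 8 or more, 6.86 and 16.9 when thinned to 1000 and 4000 UMIs, and 14.2 with another thinning seed. The synthesis minus mitosis difference (-0.13) was -0.34 with states weighted alike and -0.00038 with each cell thinned. The following were chosen after seeing the data. In cells of 4000 to 6000 UMIs the summed log2 ratio reversed to -0.23, and of 33 measured members 5 were higher and 12 lower. The percentages over all genes were not computed there, so these counts lack a background. In that window the member-rich shares were 0.377% and 0.304%, and the synthesis minus mitosis difference reversed to 0.31. The log2 ratio of Stmn1, Pclaf and Birc5 in its cells with 0 of 39 was 1.27. In cells with under 5 members the summed log2 ratio was 0.20 and the synthesis minus mitosis difference reversed to 0.28. Where these values moved, the cause was not tested. Few cells limit what can be read of member-rich cells in Mito-low, where 5 had 8 or more genes.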
